A study of Mus musculus with 54 samples.

Results

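Glutathione S-transferases of the alpha, pi and microsomal classes were followed through 54 mRNA libraries from male mice given the HDAC1/2 inhibitor Cmpd60 or its vehicle. The 7 genes were taken by symbol: the alpha class members Gsta2 (ENSMUSG00000057933), Gsta3 (ENSMUSG00000025934) and Gsta4 (ENSMUSG00000032348), the pi class member Gstp1 (ENSMUSG00000060803), and the microsomal members Mgst1 (ENSMUSG00000008540), Mgst2 (ENSMUSG00000074604) and Mgst3 (ENSMUSG00000026688). All 7 were found among the 54232 genes counted, and all 7 passed the low-count filter in every comparison. They were chosen by their response to Cmpd60 in aged kidney, so the kidney values below describe that choice and carry no test.

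The aged animals were about 20 months old and of the BL6 strain. Their groups were kidney with 6 Cmpd60 and 5 vehicle libraries, brain with 6 and 6, and heart with 5 and 6. A second set held 20 brain libraries from the APPSWE-1349 line, also on a BL6 background and aged 6 to 7 months. In this line a transgene carries a human APP isoform with the Swedish mutation. The set comprised transgenic mice with 4 Cmpd60 and 6 vehicle libraries, and littermates without the transgene with 5 and 5. Cmpd60 was injected daily at 22.5 mg/kg for 14 days in every treated group, and all controls received the DMSO, PEG400 and saline solution alone. The animals were housed singly. Nothing in the labels tells which kidney, brain and heart came from the same mouse.

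Glutathione S-transferases join the tripeptide glutathione to electrophilic compounds, which makes these more soluble and ready for export. The alpha and pi enzymes are soluble dimers of the cytosol. The microsomal enzymes belong to an unrelated family of small proteins that sit in intracellular membranes. Many genes of this group carry antioxidant response elements, short DNA sites bound by the transcription factor NRF2, and the kidney tubule is a classic site of glutathione conjugation and turnover. HDAC1 and HDAC2 are class I histone deacetylases of nuclear repressor complexes.

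Several labels and libraries needed care. For kidney, the treatment field of the labels was the reverse of the sample titles and source names, and the titles were followed. The transgenic library with name s139 was labelled as vehicle throughout the labels, while a table heading of the study lists it as treated, so its results are also given without it and with the other assignment. Reads counted on genes ranged from 23584609 to 57430113 in the aged libraries and from 25052335 to 55871402 in the APPSWE set. Genes detected, with 1 count or more, numbered from 17809 to 28017 in the former and from 15044 to 24821 in the latter, where 5 of 20 libraries (s140, s141, s146, s152 and s155) had fewer than 17000. Summed over their marker lists, proximal tubule genes stood between 5063 and 12590 CPM, the counts of a gene relative to the scaled library total, in kidney, cardiomyocyte genes between 51690 and 62150 CPM in heart, and neuronal genes between 5237 and 7175 CPM in brain, and no gene of these lists was at 0 throughout its tissue.

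Reads from near-identical copies limit what can be said of 2 of the members. The coding sequence of Gsta2 was 97.5% identical to that of Gsta1, and that of Gstp1 was 98.1% identical to that of Gstp2. Of all windows of 50 bases along the longest transcript, 65.4% were shared with another gene for Gsta2 (Gsta1 and 3 predicted genes) and 67.5% for Gstp1 (Gstp2). No such window was shared for Gsta3, Gsta4, Mgst1, Mgst2 or Mgst3. By contrast, Gsta2 was only 74.6% identical to Gsta3 and 66.2% to Gsta4. Counts of Gsta2 and Gstp1 are therefore uncertain to the extent that reads were divided with, or lost to, their copies.

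Upstream sequence is shown for Gsta2, Gsta3, Gstp1 and the first start of Mgst1, to set the DNA beside the values. The sequences of Mgst2, Mgst3 and the other Mgst1 start were searched as well but are not printed. RefSeq start sites on GRCm38.p6 were given for 6 of the 7 genes, Mgst1 with 2 of them, and for Gsta4 none was given. The 250 bases before the start are printed on the strand of the gene, in lower case, with matches to the antioxidant response element core (TGACNNNGC) or to an AP-1 type site (TGACTCA) on either strand in capitals.
Gsta2, chr9:78347146-78347395, minus strand: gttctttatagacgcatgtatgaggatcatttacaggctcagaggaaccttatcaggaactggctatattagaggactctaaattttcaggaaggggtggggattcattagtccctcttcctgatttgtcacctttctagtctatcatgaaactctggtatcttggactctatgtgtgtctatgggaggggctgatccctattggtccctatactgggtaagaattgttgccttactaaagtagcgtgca
Gsta3, chr1:21240335-21240584, plus strand: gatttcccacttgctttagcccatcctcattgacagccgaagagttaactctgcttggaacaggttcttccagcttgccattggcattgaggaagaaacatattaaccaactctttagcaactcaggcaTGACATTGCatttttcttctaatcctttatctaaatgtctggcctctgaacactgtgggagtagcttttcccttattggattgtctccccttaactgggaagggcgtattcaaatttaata
Gstp1, chr19:4037913-4038162, minus strand: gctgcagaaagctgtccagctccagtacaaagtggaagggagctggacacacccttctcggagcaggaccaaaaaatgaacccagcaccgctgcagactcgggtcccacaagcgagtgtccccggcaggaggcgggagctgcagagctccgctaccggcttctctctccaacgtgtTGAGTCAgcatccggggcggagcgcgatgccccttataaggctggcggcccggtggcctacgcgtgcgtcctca
Mgst1 (first start), chr6:138140277-138140526, plus strand: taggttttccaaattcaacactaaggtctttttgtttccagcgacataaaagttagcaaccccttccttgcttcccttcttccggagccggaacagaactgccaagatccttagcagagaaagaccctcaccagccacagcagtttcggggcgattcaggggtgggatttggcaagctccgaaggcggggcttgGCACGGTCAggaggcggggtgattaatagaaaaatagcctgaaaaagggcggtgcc
The element core was found in 2 of the 7 upstream windows, beginning 121 bases before the start of Gsta3 and 56 bases before the first start of Mgst1, against 10.2% of all 32851 windows of that length. The AP-1 type site was found 74 bases before Gstp1 and 52 bases before Mgst2, against 4.46% of all windows. No match to either was present in the windows of Gsta2, Mgst3 or the other Mgst1 start. Only the 250 bases before each start were searched, so sites further upstream would not show. GC content of the windows ran from 42% for Gsta3 to 63.2% for Gstp1.

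Which transferases each tissue uses was asked first in vehicle-treated aged mice. Levels are given as CPM per kilobase of exon, with all 34 aged libraries scaled together. The length joins the exons of all transcripts of a gene. For Mgst1 it was 2013 bases, where the longest coding transcript had 1167, and for Mgst2 3659 against 603. The order of members can therefore depend on the length used. Levels of Gsta2 and Gstp1 also carry the uncertainty from their copies given above. The kidney controls also stood in the contrast that chose the genes. Kidney was led by Gsta2 at 171 ± 44.1 (SD, n = 5), followed by Gstp1 at 127 ± 18.6, Gsta3 at 70.3 ± 12.3, Mgst3 at 57.1 ± 5.88, Mgst1 at 34.5 ± 9.92 and Gsta4 at 25.5 ± 3.07 CPM per kilobase. The libraries of Gsta2 and Gstp1 overlapped, as did those of Gsta3 with Mgst3, of Mgst3 with Mgst1 at the edge, and of Mgst1 with Gsta4. Heart had a different order, with Mgst3 on top at 181 ± 20.5 (SD, n = 6), then Gsta4 at 102 ± 5.66 and Gstp1 at 96.2 ± 6.75, whose libraries overlapped, and Mgst1 at 34.2 ± 5.23 CPM per kilobase. In brain, Gstp1 came first at 74.5 ± 7.60 (SD, n = 6), before Mgst3 at 43.8 ± 6.43, Gsta4 at 26.6 ± 3.64 and Mgst1 at 3.26 ± 0.405, and none of these neighbours overlapped. Mgst2, a microsomal enzyme that also makes leukotriene C4, was at or below 0.0722 CPM per kilobase on average in all 3 tissues.

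The steepest gradients were those of Gsta2 and Gsta3 of the alpha class. Gsta2, which conjugates a broad range of electrophiles, was 10.60 ± 0.33 (SE) log2 units higher in kidney than in brain and 6.44 ± 0.24 higher than in heart. In brain this rested on 26 reads in the 6 vehicle libraries together, 1 to 9 per library, against 4941 to 7626 in each kidney library. Gsta3, an alpha enzyme with high activity towards aflatoxin epoxide in mice, was 6.98 ± 0.24 log2 units higher in kidney than in brain and 3.12 ± 0.19 higher than in heart. Gsta4, the form that conjugates the lipid peroxidation product 4-hydroxynonenal, went the other way. It was 2.00 log2 units lower in kidney than in heart (log2 fold change -2.00 ± 0.13) and 1.94 lower in brain than in heart (-1.94 ± 0.12), while kidney and brain differed by -0.06 ± 0.13, with an interval of 2 SE from -0.31 to 0.19 (edgeR adjusted p = 0.696).

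Gstp1 varied least among the called genes. It was 0.77 ± 0.11 log2 units higher in kidney than in brain, 0.40 ± 0.11 higher in kidney than in heart, and lower in brain than in heart by a log2 fold change of -0.37 ± 0.10 (edgeR adjusted p = 0.00185). Mgst1, an abundant microsomal transferase and peroxidase of liver, was 3.40 ± 0.20 log2 units higher in kidney than in brain, whereas kidney and heart differed by 0.01 ± 0.18, with an interval from -0.35 to 0.38. Mgst3, a microsomal enzyme with glutathione peroxidase activity, was lower in kidney than in heart (log2 fold change -1.66 ± 0.12) and in brain than in heart (-2.05 ± 0.11), and higher in kidney than in brain by 0.38 ± 0.11 (edgeR adjusted p = 0.00266). In all, 5 of 7 members passed an adjusted p of 0.05 between kidney and brain (5 higher in kidney), 5 of 7 between kidney and heart (3 higher and 2 lower in kidney), and 6 of 7 between brain and heart (6 lower in brain). Among all 27105 genes tested the shares were 72.5%, 56.7% and 72.1%, so differing between tissues is not particular to these genes. The comparisons with kidney used control libraries that also stood in the choice of the genes. Their calls and p-values are therefore a description of chosen genes. The median log2 difference over all genes was -0.24, 0.02 and 0.44 in the same order.

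**Figure D1:**
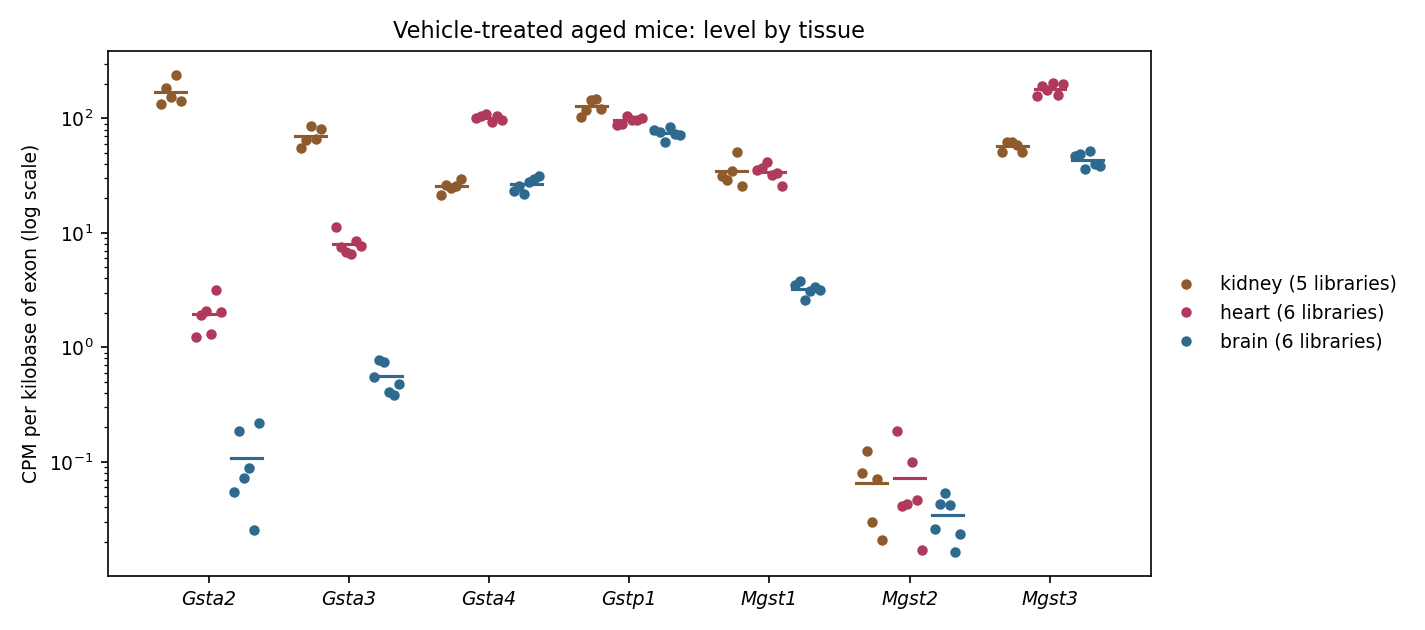
Level of each of the 7 transferases in vehicle-treated aged mice, in CPM per kilobase of exon on a log scale, with 1 point per library and a line at the group mean. Gsta2 and Gsta3 fall from kidney (5 libraries) to heart (6) to brain (6), Gsta4 and Mgst3 stand highest in heart, and Mgst2 lies near the bottom in each tissue.

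In aged kidney, 6 of the 7 genes had higher mean levels after Cmpd60, by 1.39-fold to 2.25-fold, and the seventh, Mgst2, was close to absent. Values here and for every later treatment comparison are CPM scaled within the tissue. Together the 7 genes summed to 1051 ± 254 CPM (SD, n = 6) after Cmpd60 and 584 ± 91.1 CPM (SD, n = 5) after vehicle. The members' median log2 fold change was 0.76, against -8.01e-05 over all 20698 genes tested. The values of 3 members, Gsta2, Gsta4 and Gstp1, did not overlap between the groups, a state found for 2.3% of all genes. Of all genes, 0.3% passed an adjusted p of 0.05. Since the genes were selected on this contrast, these counts describe the selection.

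Gsta4 changed most. Its 6 Cmpd60 libraries (numbers 50 to 55) stood at 65.5, 71.7, 44.7, 43.7, 48.1 and 75.2 CPM, and its 5 vehicle libraries (45 to 49) at 21.5, 26.5, 24.9, 26.0 and 30.3 CPM. The lowest treated library lay above the highest control, and the log2 fold change was 1.17 ± 0.15 (SE). Gsta2 had 539, 556, 326, 360, 332 and 478 CPM after Cmpd60 and 165, 231, 190, 301 and 177 CPM after vehicle. Here the gap was narrow, between control 48 and treated library 52, with a log2 fold change of 1.02 ± 0.19. Gsta3 had 219, 205, 149.4, 126, 108 and 153 CPM after Cmpd60 against 81.1, 94.9, 125, 97.6 and 118 CPM, so that 5 of 6 treated libraries exceeded every control, with a log2 fold change of 0.63 ± 0.17.

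Gstp1, which conjugates small electrophiles and also modifies protein thiols, was measured at 230, 180, 152, 127, 159 and 183 CPM after Cmpd60 and at 82.5, 95.0, 114, 119 and 96.8 CPM after vehicle. Its groups were separate and its log2 fold change was 0.76 ± 0.14. Mgst1 spread most, with 169, 235, 84.6, 98.7, 94.6 and 140 CPM against 66.4, 62, 74.3, 109 and 55.3 CPM. Only 3 of its 6 treated libraries exceeded every control, and the log2 fold change was 0.90 ± 0.25. Mgst3 had 104, 115, 71.8, 86.2, 82.1 and 92.5 CPM against 59.0, 72.5, 72.1, 68.6 and 59.0 CPM, a log2 fold change of 0.47 ± 0.12, with 1 treated library, number 52, inside the control range. Mgst2 gave 1 to 14 reads per treated library and 3 to 14 per control, and no fold is read from them.

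**Figure D2:**
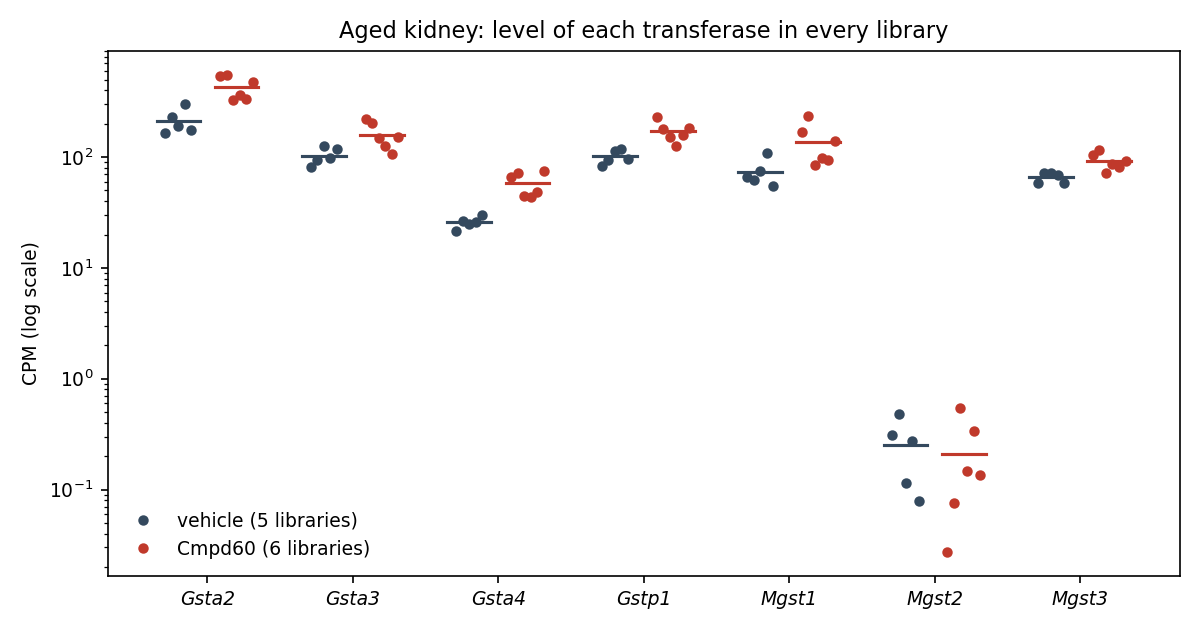
Level of the 7 transferases in aged kidney, in CPM on a log scale, with 1 point per library (5 vehicle, 6 Cmpd60) and a line at the group mean. Gsta2, Gsta4 and Gstp1 are separate between the groups, Gsta3 and Mgst3 overlap at the edge, and Mgst2 stays below 1 CPM. Mgst1 overlaps more widely, with only 3 of 6 treated libraries above every control.

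Among the treated kidneys, libraries 50, 51 and 55 held the 3 highest values of each of the 6 expressed members. With group means removed, the 15 pairs among the 6 expressed members correlated at a Pearson r between 0.53 and 0.88 over the 11 kidney libraries, with a median of 0.68, while the median over all pairs of 9922 genes was 0.02. These points share their libraries and RNA. The members were also chosen by their response in the same libraries, so the medians are a description and not a test. The strongest pair was Gsta2 with Mgst1 (r = 0.88) and the weakest Gsta2 with Gsta3 (r = 0.53). By the same measure, the genes most like each member were Atp6v0e, Fxr1 and Tpd52 for Gsta2 (r = 0.96, 0.92 and 0.91), Atp6v1e1, Plekha8 and Nampt for Gsta3 (0.98, 0.97 and 0.97), and Eef1akmt2, Tspan4 and Kxd1 for Gsta4 (0.98, 0.95 and 0.95). For Gstp1 they were Rac1, Hmgb1 and Dazap2 (0.97, 0.94 and 0.93), for Mgst1 Uxs1, Timm8a1 and Sar1a (0.94, 0.93 and 0.93), and for Mgst3 Mif, Ndufb5 and Gas6 (0.95, 0.91 and 0.91). These are the highest of 9921 genes compared over only 11 libraries, and such a search yields high r values by itself. They too are a description and not a test.

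Markers of kidney cell types gave no called change over the proximal tubule list. The 9 proximal tubule genes summed to 5063 to 12590 CPM after Cmpd60 and 9398 to 11460 CPM after vehicle, none at 0. Their median log2 fold change was -0.23, with 0 of 9 passing the test (3 lower at an unadjusted p under 0.05). With group means removed, their summed level correlated with the expressed members at r between -0.47 (Gsta4) and 0.19 (Gsta3) over the 11 libraries. Other cell type lists went further. Gsta3 had r = -0.79 with the microglia and macrophage list and -0.78 with the leucocyte list, and 0.77 with a list of astrocyte genes, which kidney also expresses. The astrocyte list summed to 690 to 1104 CPM in kidney after Cmpd60, with a median of 930. After vehicle it summed to 544 to 795.5 CPM, with a median of 689.7. Gsta4 had r = -0.74 with endothelium and -0.60 with podocytes, and Gstp1 -0.65 with endothelium. The lowest value over all 19 lists, -0.96 for Gsta4, was with neuronal genes, whose sum was 0.470 to 1.62 CPM in kidney. Between the groups, macrophage markers summed to 122 to 246 CPM after Cmpd60 and 114 to 180 CPM after vehicle, endothelial markers to 272 to 433 and 330 to 404 CPM, podocyte markers to 361 to 506 and 426 to 506 CPM, and leucocyte markers to 23.8 to 67.6 and 29.5 to 65.7 CPM, with 0 called in each of these lists. Leucocyte markers had a median log2 fold change of -0.43, and loop of Henle markers, at 4022 to 8404 against 7483 to 10090 CPM, one of -0.27. Of all marker lists in kidney, 1 gene was called, Ttr, a transport protein listed for choroid plexus, with a log2 fold change of -1.43 ± 0.21 (edgeR adjusted p = 0.00679). In tissue RNA, fewer cells of a type and less RNA per cell cannot be told apart, and the part of cell composition in the transferase values was not tested.

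Around these genes, 93 other genes of glutathione metabolism and the NRF2 system were counted, of which 89 could be tested in kidney. The test passed for 3, all higher after Cmpd60, and 24 genes were higher and 4 lower at an unadjusted p under 0.05, a level that 11.3% of all genes reached in either direction. These lists were chosen with earlier results of these data known. Their kidney counts and p-values, here and in the next paragraph, are therefore a description and no independent support. Cbr1, a carbonyl reductase and NRF2 target, rose from 61.1 ± 12.0 to 136 ± 33.4 CPM (log2 fold change 1.16 ± 0.17, edgeR adjusted p = 0.00679). Gsto1, an omega class transferase with thiol reductase activity, rose from 31.4 ± 3.26 to 44.6 ± 2.42 CPM (0.51 ± 0.08, adjusted p = 0.0169). Abcc4, an exporter of organic anions and conjugates, rose from 99.5 ± 7.14 to 138.5 ± 15.9 CPM (0.48 ± 0.09, adjusted p = 0.0384). Abcc4 lost its call in 8 of the 11 fits that each left out 1 library (highest adjusted p = 0.136), Gsto1 in 4 (highest 0.0732) and Cbr1 in none.

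NRF2 target genes had a median log2 fold change of 0.37 in kidney, with 1 of 16 passing the test and 10 higher and 0 lower at an unadjusted p under 0.05, where 11.3% of all genes stood. The transcription factor itself, Nfe2l2, stood at 153.9 ± 14.5 CPM after Cmpd60 and 131 ± 12.6 CPM after vehicle (0.23 ± 0.09, adjusted p = 0.367), and its competitor Bach1 at 50.0 ± 7.00 and 55.9 ± 4.37 CPM (-0.16 ± 0.10, adjusted p = 0.582). Glutathione synthesis and supply had 0 of 11 called, with G6pdx, the NADPH-producing glucose-6-phosphate dehydrogenase, at 57.7 ± 8.21 against 41.8 ± 1.93 CPM (0.46 ± 0.10, adjusted p = 0.0755). Among genes of glutathione breakdown, where 0 of 13 were called, Ggct and Chac2 had log2 fold changes of -0.57 ± 0.12 and -0.53 ± 0.12 (adjusted p = 0.0776 and 0.0852). The copy Gsta1 was at 2.05 ± 1.69 against 0.497 ± 0.212 CPM (2.05 ± 0.59, adjusted p = 0.179), and Gstp2 at 1.03 ± 0.421 against 1.48 ± 0.869 CPM (-0.52 ± 0.42, adjusted p = 0.678). Reads assigned to Gsta1 and Gstp2 were thus a small fraction of those assigned to Gsta2 and Gstp1. Reads lost because they fit several copies do not show in these counts. The predicted genes that share sequence with Gsta2 were not looked at. Mgst-related membrane proteins, glutaredoxins, glyoxalases and peroxidases had 0 called.

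In aged brain no member was called, and most were measured closely. 0 of 7 passed the test, where 0.0205% of 24438 genes did, and 0 of 7 separated between the groups, against 0.925% of all genes. The members' median log2 fold change was 0.08, and over all genes it was 0.01. Gstp1 stood at 52.5, 68.8, 76.4, 66.2, 67.9 and 60.7 CPM in the 6 Cmpd60 libraries (33 to 38) and at 70.5, 68.2, 56.2, 75.7, 66.4 and 63.9 CPM in the 6 vehicle libraries (27 to 32). The groups overlapped over nearly their whole range, and the log2 fold change was -0.03 ± 0.08, with an interval of 2 SE from -0.19 to 0.13 (edgeR adjusted p = 0.903). Mgst3 gave -0.08 ± 0.08 with an interval from -0.24 to 0.08, Gsta4 -0.08 ± 0.09 with one from -0.27 to 0.11, and Mgst1 0.08 ± 0.10 with one from -0.13 to 0.28. Gsta3, at only 0.92 ± 0.28 CPM after vehicle, gave 0.17 ± 0.21 with a wider interval from -0.26 to 0.59. Gsta2 and Mgst2, both near 0.15 CPM, were too low in brain for a useful interval. Of 88 pathway genes tested, 0 were called by edgeR (17 at an unadjusted p under 0.05, which 13.8% of all genes reached, and 1 by DESeq2). The mu class transferase Gstm1 came nearest, with 174 ± 14.4 against 145.3 ± 12.1 CPM (0.26 ± 0.06, edgeR adjusted p = 0.111 and DESeq2 adjusted p = 0.0158).

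In aged heart, 0 of 7 members passed the test, where 1.18% of 19452 genes did, and 3 had an unadjusted p under 0.05, in both directions, where 13.5% of all genes did. None separated between the groups, a state found for 2.69% of all genes. Mgst3 had 116, 120, 161, 135 and 109 CPM in the 5 Cmpd60 libraries (68 to 72) and 139.3, 166, 152, 174, 144.4 and 169 CPM in the 6 vehicle libraries (62 to 67). Treated libraries other than 70 lay below every control, and the log2 fold change was -0.30 ± 0.09 (edgeR adjusted p = 0.146). Mgst1 had 76.7, 70.6, 60.0, 73.8 and 61.1 CPM after Cmpd60 and 57.9, 58.1, 66.1, 50.8, 55.8 and 40.1 CPM after vehicle. Here 3 of 5 treated libraries exceeded every control, with a log2 fold change of 0.32 ± 0.11 (adjusted p = 0.168). Gsta2 was low and variable, at 1.06 ± 0.534 against 1.84 ± 0.683 CPM (-0.78 ± 0.34, adjusted p = 0.314). Gsta3 stood at 11.6 ± 3.94 against 8.96 ± 2.14 CPM (0.38 ± 0.21, adjusted p = 0.447), and Mgst2 at 0.0748 ± 0.104 against 0.212 ± 0.186 CPM, or 0 to 9 against 2 to 14 reads per library (adjusted p = 0.578).

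The heart calls for Mgst3 depended on the fit. Its log2 fold change was -0.39 without treated library 70 (edgeR adjusted p = 0.0317) and -0.30 by DESeq2 (adjusted p = 0.0371), and it stayed uncalled in the other alternatives run. Gsta4 and Gstp1 were measured most closely in heart, at -0.01 ± 0.08 (interval -0.17 to 0.14) and -0.09 ± 0.06 (interval -0.22 to 0.03). Endothelial markers summed to 871 to 1140 CPM after Cmpd60 and 811 to 908 CPM after vehicle, and cardiomyocyte markers to 51690 to 62150 and 53020 to 61710 CPM, with 0 of 5 and 0 of 7 called. At an unadjusted p under 0.05, 3 of 5 endothelial markers were higher (median log2 fold change 0.19) and 0 of 7 cardiomyocyte markers differed. Atrial cardiomyocyte markers, at 2102 to 5695 against 2722 to 6571 CPM, had 0 of 4 called and 2 lower at that level (median -0.47). Their part in the transferase values was not tested. Of 85 pathway genes tested in heart, 3 rose and 1 fell. The peroxidase Gpx1 rose from 55.8 ± 8.85 to 81.7 ± 16.0 CPM (0.55 ± 0.13, adjusted p = 0.0455), the exporter Abcc3 from 1.51 ± 0.271 to 2.98 ± 0.697 CPM (0.98 ± 0.21, adjusted p = 0.0394), and the quinone reductase Nqo1 from 61.7 ± 6.33 to 85.8 ± 16.5 CPM (0.48 ± 0.11, adjusted p = 0.0483). Akr1b3, an aldose reductase, fell from 147 ± 9.28 to 117 ± 9.06 CPM (-0.32 ± 0.07, adjusted p = 0.0280). With each of the 11 heart libraries left out in turn, Akr1b3 lost its call in 6 fits, Abcc3 and Gpx1 in 9 each and Nqo1 in 10.

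**Figure D3:**
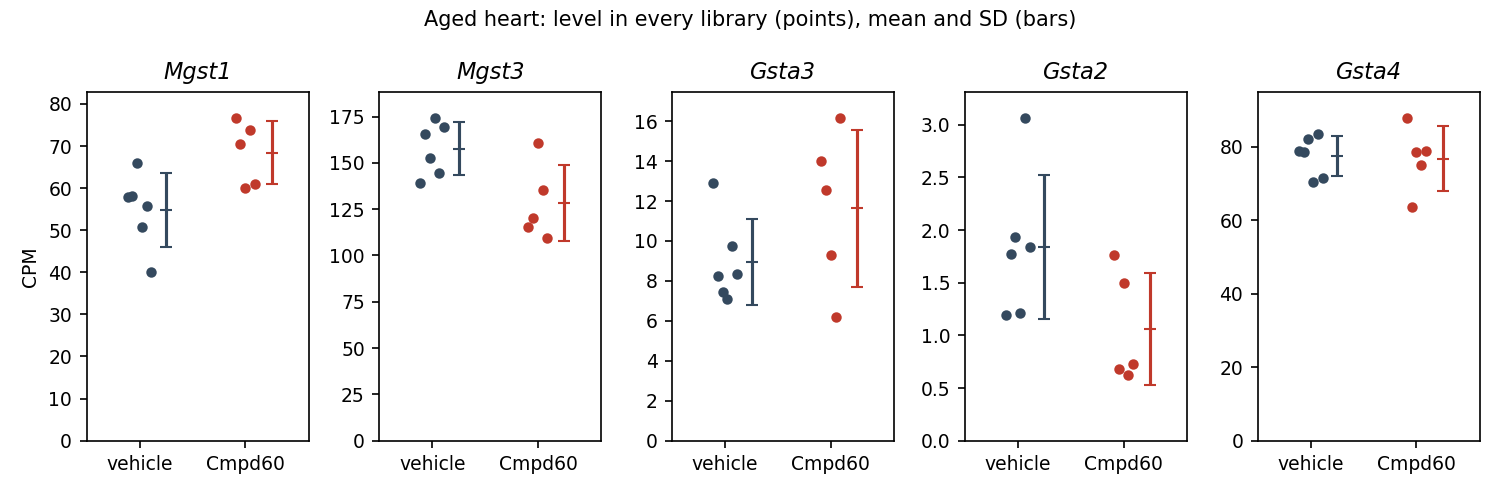
Level in CPM of 5 of the transferases in aged heart, with 1 point per library (6 vehicle, 5 Cmpd60) and the mean with SD beside them. Mgst1 is shifted upwards and Mgst3 downwards after Cmpd60, with overlapping libraries in each case, and the treated libraries of Gsta4 lie on both sides of its controls.

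The response of brain and heart was compared in 1 fit of all aged libraries. The difference in Cmpd60 effect between brain and heart passed the test for 0 of 7 members, where 0.0517% of 27105 genes did. The best measured differences were 0.08 ± 0.15 for Gstp1 and -0.05 ± 0.17 for Gsta4, those for Mgst1 and Mgst3 were -0.23 ± 0.26 and 0.23 ± 0.15, and those for the low genes Gsta2, Gsta3 and Mgst2 were 0.95 ± 0.70, -0.21 ± 0.34 and 1.53 ± 1.01 (smallest edgeR adjusted p over the members = 0.706). Side by side, the log2 fold changes in kidney, brain and heart were 1.17, -0.08 and -0.01 for Gsta4 and 0.76, -0.03 and -0.09 for Gstp1. For Mgst1 they were 0.90, 0.08 and 0.32, and for Mgst3 0.47, -0.08 and -0.30. In the same order, Gsta2 had 1.02, 0.22 and -0.78, and Gsta3 had 0.63, 0.17 and 0.38, positive in each tissue. Both were low in brain, and Gsta2 also in heart. Mgst2 had too few reads in each tissue to be set beside them.

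**Figure D4:**
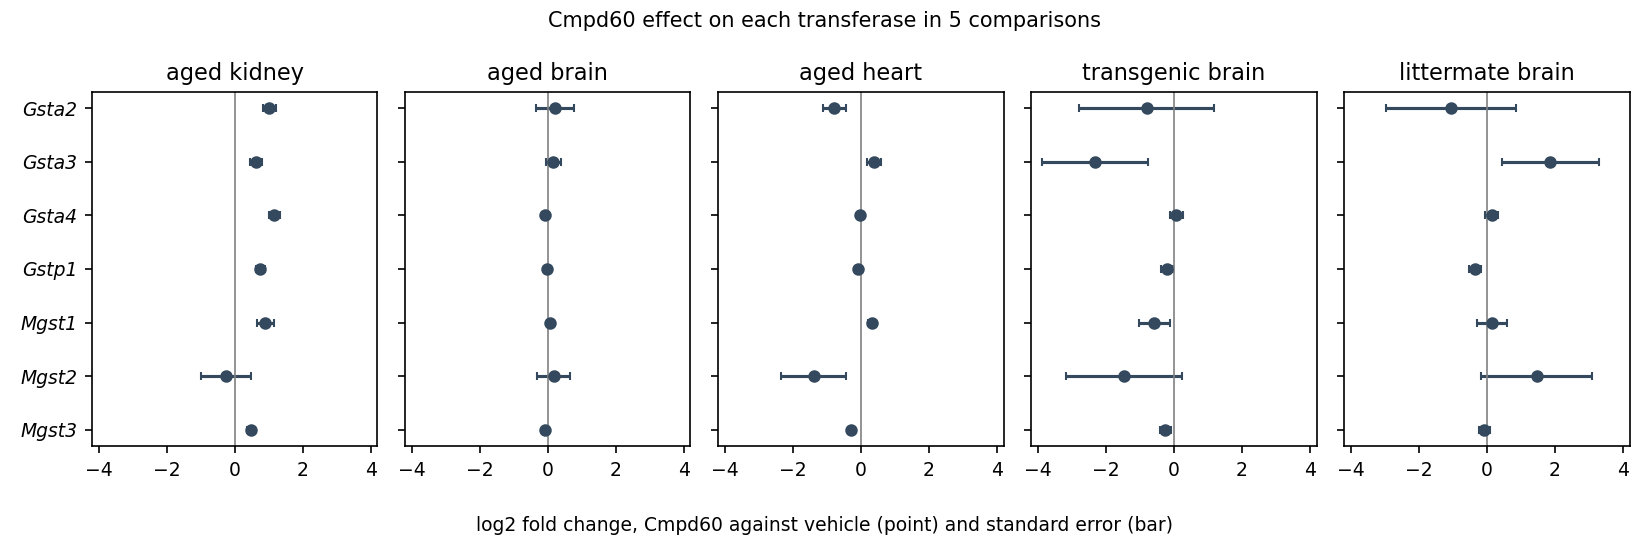
Log2 fold change of each transferase, Cmpd60 against vehicle, in 5 comparisons, with the standard error as a bar. Kidney values lie to the right of 0 for 6 genes, while Gsta4, Gstp1 and Mgst3 stay between -0.35 and 0.14 in the other 4 comparisons and the low genes Gsta2, Gsta3 and Mgst2 have wide bars in the APPSWE set. Mgst1 lies at 0.08 in aged brain, 0.32 in aged heart, -0.58 in transgenic brain and 0.15 in littermate brain.

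In the brains of the APPSWE set the same 3 members, Gstp1, Mgst3 and Gsta4, made up nearly all of the total. As shares of the members' CPM per kilobase in littermate vehicle brains, Gstp1 took 51.9 ± 6.25%, Mgst3 24.8 ± 2.79% and Gsta4 21.3 ± 2.96% (SD, n = 5), and in aged vehicle brains 50.1 ± 0.849%, 29.3 ± 2.11% and 17.9 ± 2.48% (SD, n = 6). Age, cohort and sequencing cannot be told apart between these sets, so no test was made. No member was called by edgeR in any of the 5 comparisons within the set. The effect of Cmpd60 was called for 0 of 7 in transgenic brains and 0 of 7 in littermate brains, and among all 23273 genes for 0% in each (2044 and 875 at an unadjusted p under 0.05). Between genotypes, 0 of 7 were called under vehicle, where 0.00859% of genes were, and 0 of 7 under Cmpd60, where 0% were (314 at an unadjusted p under 0.05). The difference of the Cmpd60 effect between genotypes was called for 0 of 7 members and 0% of genes (1116 at an unadjusted p under 0.05). DESeq2 called 0 members in each of these comparisons.

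Gstp1 was steady in most of these libraries. Littermate vehicle brains (s149, s150, s151, s154 and s155) had 60.5, 64.3, 68.8, 63.7 and 130 CPM, and littermate Cmpd60 brains (s152, s153, s156, s157 and s158) 64.6, 58.9, 54.9, 62.4 and 62.7 CPM. Only library s155 stood apart, and the log2 fold change of -0.35 ± 0.17 (edgeR adjusted p = 0.9997, the only member of that comparison with an unadjusted p under 0.05) became -0.08 without it. Transgenic vehicle brains (s139, s140, s142, s144, s145 and s146) had 67.7, 77.7, 71.2, 58.3, 55.5 and 64.8 CPM and transgenic Cmpd60 brains (s141, s143, s147 and s148) 72.9, 49.6, 59.0 and 47.5 CPM. These ranges overlapped, with a log2 fold change of -0.20 ± 0.17 (adjusted p = 0.905).

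Gsta3 showed the largest swings and they came from single libraries. It had 0.0740, 9.28, 0, 0, 0.370 and 1.16 CPM in transgenic vehicle brains, and 0, 0.234, 0.699 and 0.514 CPM in transgenic Cmpd60 brains. In littermates it had 0.221, 0.999, 0.817, 0.892 and 0 CPM after vehicle and 6.97, 1.44, 0.875, 0.878 and 0.589 CPM after Cmpd60. Libraries s140 and s152 hold the high values, and both are among the 5 with fewer than 17000 genes detected. The Cmpd60 effect on Gsta3 in transgenic brains moved from a log2 fold change of -2.32 ± 1.56 to 0.17 without library s140, and that in littermates from 1.87 ± 1.44 to 0.68 without library s152. None of these passed the test. A count of 0 allows up to 3 counts, which is 0.0536 to 0.121 CPM at the depths of these libraries, counting error alone.

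Mgst1 was between 2.05 and 10.5 CPM in 19 of the 20 libraries and 21.3 CPM in transgenic vehicle library s146. The Cmpd60 effect in transgenic brains was -0.58 ± 0.46 with that library and -0.11 without it. Gsta4 was 18.9 CPM in library s140 and between 25.3 and 56.1 CPM in the others, with Cmpd60 effects of 0.07 ± 0.20 in transgenic and 0.14 ± 0.19 in littermate brains. Mgst3 gave -0.25 ± 0.16 and -0.08 ± 0.16. Gsta2 was at 0 in 14 of 20 libraries and Mgst2 in 7, and at most 0.667 and 1.43 CPM in the others, so no fold is given for them. Mgst1 in littermates gave 0.15 ± 0.44. With library s139 counted as treated, the transgenic effects were 0.13 for Gsta4, -0.14 for Gstp1, -0.72 for Mgst1 and -0.35 for Mgst3, and without it 0.11, -0.20, -0.69 and -0.32, with 0 members called either way. Without the 5 libraries of few detected genes, an alternative chosen after seeing the data, the transgenic effects were -0.23, -0.28, -0.09 and -0.06 for the same genes, and again 0 members were called in each of the 5 comparisons. Of the 87 pathway genes tested, 0 were called by edgeR in any comparison of this set (8, 3, 3, 1 and 2 at an unadjusted p under 0.05 in the order given above), and DESeq2 called at most 1.

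Between genotypes under vehicle, transgenic against littermate, the log2 fold changes were 1.63 ± 1.39 for Gsta3, -0.15 ± 0.18 for Gsta4, -0.23 ± 0.16 for Gstp1, 0.50 ± 0.42 for Mgst1 and 0.05 ± 0.15 for Mgst3. That of Gsta3 became -0.87 without library s140. Under Cmpd60 they were -2.56 ± 1.61, -0.22 ± 0.21, -0.09 ± 0.18, -0.23 ± 0.47 and -0.13 ± 0.17 for the same genes. The difference of the Cmpd60 effect between genotypes was -4.19 ± 2.12 for Gsta3, which contains both libraries of high Gsta3, -0.07 ± 0.28 for Gsta4, 0.15 ± 0.24 for Gstp1, -0.73 ± 0.63 for Mgst1 and -0.17 ± 0.23 for Mgst3 (edgeR adjusted p = 1 for each of these 5 differences).

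**Figure D5:**
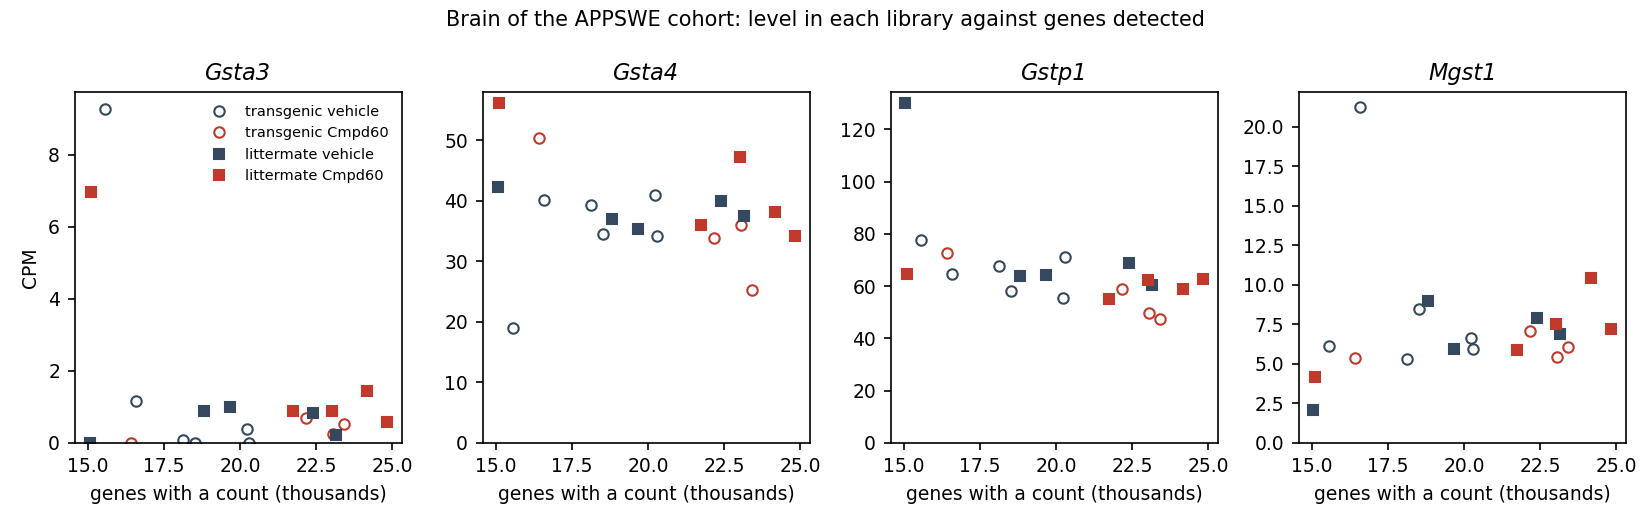
Level in CPM of 4 transferases in each of the 20 brain libraries of the APPSWE set, against the count of detected genes, by genotype and treatment. The extreme values of Gsta3 (9.28 and 6.97 CPM), Gstp1 (130 CPM) and Mgst1 (21.3 CPM) lie among the 5 libraries with fewer than 17000 detected genes.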

How the data were processed

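Poly(A) RNA was sequenced from directional libraries of 3 aged tissues and of APPSWE-set brains. Per the labels, the authors trimmed reads with Trimmomatic 0.32, aligned them with HISAT2 2.1.0 and counted reads per gene with HTSeq 0.11.0; the deposited values are raw counts, 1 file per sample, and the genome build is not given in the sources used here. The 5 summary lines of each file (15.4% to 22.2% of its total) were set aside. Identifiers were matched to symbols for 32651 of 54232 genes.

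A gene entered a fit if 3 or more libraries held over 2 counts, the filter of the study. Fits were made with edgeR 4.0.16 (TMM, quasi-likelihood test) in R 4.3.3, per aged tissue, over all 34 aged libraries for tissue comparisons, and over all 20 APPSWE-set libraries. The study used limma-voom, which, with DESeq2 1.42.0, RLE scaling, other filters and each library left out, served as an alternative. Benjamini-Hochberg adjustment ran over all genes tested, and SE is the log2 fold change over the root of F. Depth allows a floor of 3 counts, 0.052 to 0.124 CPM per library. Exon lengths and transcripts came from GENCODE vM1, upstream sequence from RefSeq on GRCm38.p6. Scripts were tested on simulated data. Replicates are separate samples, which the labels do not all tie to separate mice for each tissue. No pair of replicates agreed within sampling noise.

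The members and gene lists were chosen with earlier results of these data known. The rule takes all 7 members in every comparison; for members near 0 reads the text gives levels in place of a fold, and in the APPSWE set Gsta2 and Mgst2 are given once for all comparisons. Of the other lists, genes past the threshold are named (up to 6 per list, mean of at least 1 CPM), or otherwise those with the smallest p, of which the text gives a selection. The genes most like a member are the 3 with the highest Pearson correlation over the kidney libraries, among genes with a mean of at least 10 CPM.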

Additional observations from a re-analysis of the deposited data

Results flagged for a closer look

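Of 70 sets of values (7 members in 10 groups), 8 held a library whose distance to its nearest neighbour exceeded Dixon's 95% limit relative to the range of the group, where about 1 in 20 is flagged by chance. All 8 were in the APPSWE set and 0 in the aged tissues, and 5 of the 8 fell in libraries with fewer than 17000 detected genes. Gsta3 was at 9.28 CPM (519 reads) in transgenic vehicle library s140, where the other 5 reached at most 1.16 CPM, and at 6.97 CPM (226 reads) in littermate Cmpd60 library s152, where the others reached at most 1.44 CPM. Gsta4 was lowest in the same library s140, at 18.9 CPM against 34.2 to 40.9 CPM. Gstp1 was at 130.2 CPM (3239 reads) in littermate vehicle library s155, against 60.5 to 68.8 CPM. Mgst1 was at 21.3 CPM (603 reads) in transgenic vehicle library s146, against 5.33 to 8.46 CPM. The other 3 were Gsta2 at 0.421 CPM (16 reads) in littermate vehicle library s150, 0.234 CPM (13 reads) in transgenic Cmpd60 library s143 and 0.667 CPM (18 reads) in transgenic vehicle library s145, in groups whose other libraries held 0 to 3 reads. For s143 and s145 all other libraries of the group held 0 reads. Any reads in a single library are then flagged, so the share of 1 in 20 does not apply to such groups. The part of the low number of detected genes in these values was not tested.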

How the results depend on the processing

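The kidney description was stable in the alternatives run: the members' median log2 fold change was 0.75 to 0.76 under other scalings, filters and tools and 0.66 to 0.83 with each library left out, and 3 to 4 members separated. The number of members called kept its value in every alternative of the other comparisons except in heart, where it was 1 (Mgst3) in place of 0 by DESeq2 and ranged from 0 to 1 with each library left out (1 without Cmpd60 library 70). The separation count in heart likewise ranged from 0 to 1 (1 without library 70 or vehicle library 64). The cause was not tested. Counts over all genes moved more: 62 in kidney became 429 by DESeq2 and 20 to 131 with each library left out, 5 in brain became 2 by limma-voom, 429 by DESeq2 and 1 to 372, 229 in heart became 746 and 36 to 247, and 14 for brain against heart became 187 and 1 to 36. In the APPSWE set 0 to 2 became 28 at most, by DESeq2. Pathway calls became 13 in kidney (3) and 7 in heart (4) by DESeq2, and were 1 to 4 and 0 to 3 with each library left out. No called member reversed its direction. No paired analysis was possible because the library numbers are unique and pair no samples across groups. Depth limits Gsta2, Gsta3 and Mgst2 in brain and Mgst2 in every tissue.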
